A study of Mus musculus with 6 samples.

Results

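The genes described here encode the enzymes that remove superoxide and peroxides and that use glutathione or thioredoxin as their reductant. They comprise the glutathione peroxidases, peroxiredoxins, superoxide dismutases, glutaredoxins, the thioredoxin system and the glutathione S-transferases. The rule for members names gene symbols and uses no measured value, and a gene counted only where a row of the array named it alone. This gave 42 of the 14860 genes tested, made up of 8 glutathione peroxidases, 4 peroxiredoxins, 2 superoxide dismutases, 4 glutaredoxins, 5 genes of the thioredoxin system and 19 glutathione S-transferases. Another 11 mouse genes fit the same symbols but had no row of their own. Gstm6, Gstp1, Gstp2 and Txnrd1 shared a row with another gene, and Gsta1, Gsta2, Mgst2, Prdx5, Prdx6, Prdx6b and Sod1 were not listed. Expression was measured in murine 3T3-L1 adipocytes, a pre-adipocyte line (under 6 passages) differentiated for 7 days with an adipogenic cocktail. For 3 arrays the adipocytes had spent 24 hours in media conditioned by leukemia cells (LCM), and for the 3 control arrays they had stayed in regular media. For the adipocytes the labels give RPMI1640 and the methods DMEM high glucose, each with 10% FBS, and which of them the control arrays had is not stated, so a difference in base medium cannot be told apart from LCM. The sample labels name murine 8093 acute lymphoblastic leukemia (ALL) cells as the source of LCM, conditioned for 48 hours in RPMI1640 with 10% FBS, IL-3 and BME, whereas the methods of the study name the human ALL line BV173. Since IL-3 and BME (beta-mercaptoethanol, itself a reducing agent) are named for LCM alone, they cannot be told apart from what the leukemia cells released. All values are log2 expression values from RMA, and a difference of 1 on this scale is a doubling.

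Superoxide dismutases turn superoxide into hydrogen peroxide, and the peroxidases reduce that peroxide to water. Glutathione peroxidases draw the electrons from glutathione, and peroxiredoxins draw them from thioredoxin, which thioredoxin reductases recharge with NADPH. Glutaredoxins remove glutathione from oxidized proteins or carry iron-sulfur clusters, and glutathione S-transferases attach glutathione to lipid aldehydes, drugs and other electrophiles. Several of these genes are known targets of Nrf2, the transcription factor of the oxidative stress response that the study examined, and cells keep separate sets of them in the cytosol, the mitochondria and the endoplasmic reticulum (ER).

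With LCM, none of the 42 enzyme genes rose, and Mgst3, Gpx1 and Glrx5 fell (adjusted p under 0.05 from limma, Benjamini-Hochberg over all genes, n = 3 cultures per group). Mgst3 encodes a membrane-bound glutathione S-transferase, Gpx1 the main intracellular glutathione peroxidase, and Glrx5 a mitochondrial glutaredoxin. The 3 falls were 7.14% of the members, while 1.97% of all genes fell and 2.29% rose, or 4.26% in either direction. At an unadjusted p under 0.05, 2 members were higher (4.76%) and 8 lower (19.0%), against 9.25% and 10.3% of all genes, and 23.8% of members passed this limit in either direction against 19.6% of all genes. The LCM and control values did not overlap for 11 members, 26.2% of them, which is close to the 27.5% of all genes. Of these 11, Gsto1 and Prdx4 were higher in LCM and Glrx, Glrx5, Gpx1, Gpx7, Gstm3, Gstm7, Gsto2, Gstz1 and Mgst3 were lower, which is 4.76% and 21.4% of members against 12.8% and 14.7% of all genes. The median log2 fold change was -0.05 over the members and -0.03 over all genes, so the enzymes as a group lay near the other genes. The members spanned -0.68 for Mgst3 to 0.43 for Gsto1.

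**Figure D1:**
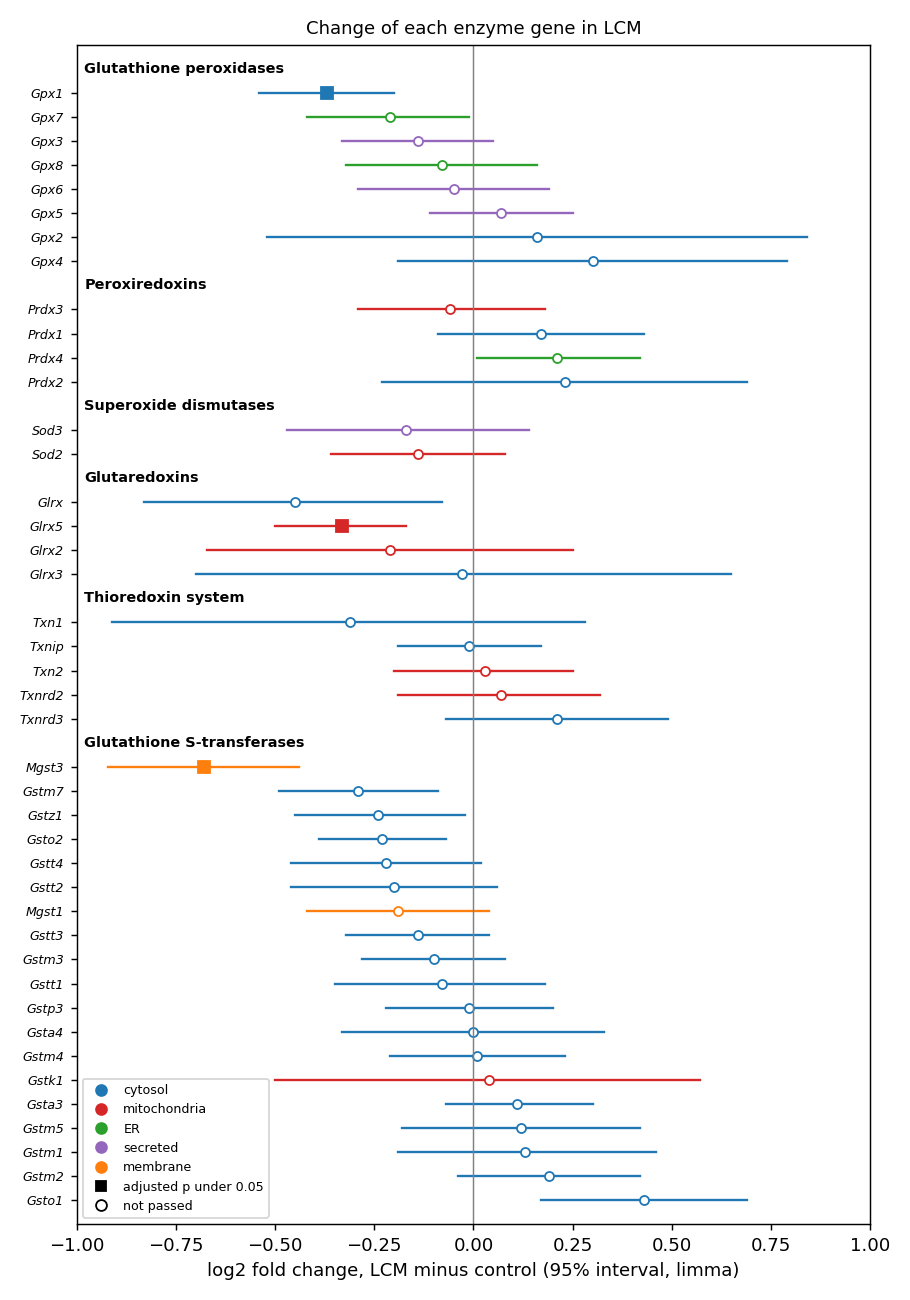
Log2 fold change (LCM minus control) of each of the 42 enzyme genes, grouped by family, with the 95% interval from limma as a line (n = 3 arrays per group) and the compartment of the enzyme as colour. Filled squares passed at an adjusted p under 0.05, and these are Mgst3 at -0.68, Gpx1 at -0.37 and Glrx5 at -0.33.

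The arrays were alike, with correlations of 0.979 to 0.994 over all transcripts and medians of 7.60 to 7.68. Control replicate 2 correlated with the other controls at 0.980 and 0.984. Replicates are described as biological, and the number of arrays limits the precision. The cultures expressed adipocyte genes strongly, with Adipoq, which encodes adiponectin, at 13.39 ± 0.07 (SD, n = 3) in control. Of 10 adipocyte markers 3 fell (Adipoq, Cd36 and Cidec) and none rose, 9 were lower at an unadjusted p under 0.05, and 8 did not overlap between the groups. Their median log2 fold change was -0.43, lower than the -0.37 of Gpx1 and the -0.33 of Glrx5 but above the -0.68 of Mgst3. The log2 summed level of these 10 markers was 15.64 to 15.69 in control and 15.21 to 15.32 in LCM. Of 7 pre-adipocyte and fibroblast markers none passed (2 were lower at an unadjusted p under 0.05), with a log2 summed level of 14.42 to 14.72 in control and 14.65 to 14.80 in LCM. Of 8 B-lineage markers none passed, also at an unadjusted p under 0.05, and Ptprc and Dntt, which mark such cells, lay at 4.27 and 4.57 in LCM and at 4.30 and 4.51 in control. Their log2 summed level was 11.42 to 11.58 in LCM and 11.54 to 11.80 in control. Most of it came from Ebf1, a factor of B-cell and also of fat cell development, at 11.31 ± 0.11 in LCM and 11.44 ± 0.19 in control (SD, n = 3), and the other 7 averaged 6.74 or less. In bulk RNA, fewer adipocytes and less RNA per adipocyte cannot be told apart, and the part of either in the values below was not tested.

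Among the glutathione peroxidases, Gpx1 fell and the other 7 genes did not pass. Gpx1 measured 10.24, 10.11 and 10.28 on the control arrays and 9.83, 9.85 and 9.84 on the LCM arrays. Every LCM value lay below every control value, and the LCM values were nearly equal. The level in LCM was 77.4% of that in control (adjusted p = 0.0398 from limma, with a standard error of 0.07 on the log2 fold change of -0.37). Gpx4, which alone in the family reduces lipid peroxides within membranes, moved the other way in its mean but with wide spread. It measured 12.49, 11.80 and 12.69 in control and 12.67, 12.59 and 12.61 in LCM. The LCM values fell inside the range of the controls, where control replicate 2 was the lowest. The log2 fold change of Gpx4 was 0.30 (95% interval -0.19 to 0.79, adjusted p = 0.491 from limma), and it was 0.04 without control replicate 2.

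The peroxidases of the ER, Gpx7 and Gpx8, which act in protein folding, had log2 fold changes of -0.21 and -0.08. Gpx7 was lower on every LCM array, at 8.25 to 8.37 against 8.39 to 8.66, but did not pass (adjusted p = 0.245 from limma). Gpx3, the secreted plasma peroxidase, lay at 5.91 to 6.22 on all arrays, with a log2 fold change of -0.14. Gpx2, the peroxidase of the gut epithelium, ranged from 5.46 to 6.52 among the controls alone. Gpx5 and Gpx6, known from the epididymis and the olfactory tissue, lay at 4.40 to 4.60 and 5.10 to 5.39. Gpx2, Gpx3, Gpx5 and Gpx6 stayed under the dim-gene threshold of 7.86, the median over all genes. Among the 6 measured enzymes that carry selenocysteine (Gpx1, Gpx2, Gpx3, Gpx4, Txnrd2 and Txnrd3), 1 fell and 4 had a positive log2 fold change, with a median of 0.11 that was -0.01 without control replicate 2.

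The peroxiredoxins did not pass in either direction. Prdx4, the peroxiredoxin of the ER, measured 11.13, 10.89 and 11.02 in control and 11.30, 11.18 and 11.19 in LCM. Its groups did not overlap, with a log2 fold change of 0.21 (95% interval 0.01 to 0.42, adjusted p = 0.240 from limma). Prdx1, a cytosolic enzyme and known Nrf2 target, measured 9.10, 9.01 and 9.41 in control and 9.40, 9.33 and 9.31 in LCM. Its LCM values lay within the range of the controls. The difference was 0.17 (95% interval -0.09 to 0.43), which leaves room for a rise of 0.43 or a small fall. Prdx2, its cytosolic paralog, measured 7.54, 6.79 and 7.55 in control and 7.52, 7.49 and 7.55 in LCM. Only control replicate 2 stood away from the other values, and the difference of 0.23 became -0.03 without it. Prdx3, the mitochondrial peroxiredoxin, averaged 12.21 ± 0.13 (SD, n = 3) in control and 12.16 ± 0.13 (SD, n = 3) in LCM. The groups overlapped, with a difference of -0.06 (95% interval -0.29 to 0.18).

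Neither superoxide dismutase passed. Sod2, the manganese enzyme of the mitochondrial matrix, measured 11.20, 11.30 and 11.41 in control and 11.29, 11.16 and 11.04 in LCM. The groups overlapped, with a difference of -0.14 (95% interval -0.36 to 0.08). Sod3, the secreted copper-zinc enzyme, measured 8.34, 8.81 and 8.43 in control and 8.46, 8.37 and 8.25 in LCM. The difference of -0.17 shrank to -0.03 without control replicate 2, which was the highest array.

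All 4 glutaredoxins had a negative log2 fold change, and 1 of them passed. Glrx5, which serves iron-sulfur cluster assembly in mitochondria, measured 11.32, 11.37 and 11.23 in control and 10.98, 10.97 and 10.98 in LCM. Its groups were far apart relative to their spread, and the level in LCM was 79.5% of that in control (adjusted p = 0.0479 from limma, with a standard error of 0.07 on the log2 fold change of -0.33). Glrx, the cytosolic enzyme that strips glutathione from proteins, measured 9.18, 9.68 and 9.02 in control and 8.88, 8.84 and 8.80 in LCM. Every LCM value was below every control value, and control replicate 2 was the highest control. The log2 fold change of -0.45 did not pass (standard error 0.16, adjusted p = 0.178 from limma), and without that array it was -0.26 (adjusted p = 0.0799 from limma). Glrx2, another mitochondrial glutaredoxin, lay at 11.60, 12.37 and 11.81 in control and 11.78, 11.85 and 11.51 in LCM. Its difference of -0.21 was 0.01 without control replicate 2. Glrx3, which handles iron-sulfur clusters in the cytosol, was dim and scattered over 5.41 to 6.50 in both groups.

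None of the 5 genes of the thioredoxin system passed. Txnip, which binds thioredoxin and blocks it, and which responds to glucose, averaged 13.03 ± 0.10 (SD, n = 3) in control and 13.02 ± 0.02 (SD, n = 3) in LCM. All LCM values lay inside the control range, and the difference of -0.01 had a 95% interval of only -0.19 to 0.17. Txn2, the mitochondrial thioredoxin, measured 11.01, 10.83 and 11.15 in control and 11.07, 11.04 and 10.97 in LCM, a difference of 0.03 (95% interval -0.20 to 0.25). Txn1, the cytosolic thioredoxin, measured 7.10, 6.19 and 7.06 in control and 6.19, 6.54 and 6.68 in LCM. It read under the dim-gene threshold on every array, and its lowest control and lowest LCM arrays read alike. Its difference of -0.31 had a wide interval of -0.91 to 0.28, and without control replicate 2 it was -0.61 (adjusted p = 0.0499 from limma). Txnrd2, the mitochondrial reductase, and Txnrd3, a reductase known mainly from testis, had differences of 0.07 and 0.21.

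The glutathione S-transferases held both the largest fall and the largest positive difference of the 42 genes. Mgst3, a membrane protein that conjugates glutathione and reduces lipid hydroperoxides, measured 10.69, 10.33 and 10.55 in control and 9.87, 9.89 and 9.77 in LCM. The highest LCM array lay well below the lowest control array. Mgst3 in LCM was at 62.4% of control (adjusted p = 0.0170 from limma, with a standard error of 0.10 on the log2 fold change of -0.68). Its relative Mgst1, which sits in the ER and the outer mitochondrial membrane, measured 12.91, 12.59 and 12.87 in control and 12.61, 12.58 and 12.61 in LCM. Control replicate 2 lay among the LCM arrays and the other controls above them, with a difference of -0.19 (adjusted p = 0.349 from limma) that became -0.29 without control replicate 2 (adjusted p = 0.0362 from limma).

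The omega-class pair differed in direction. Gsto1, which reduces dehydroascorbate and removes glutathione from proteins, measured 10.18, 9.95 and 10.28 in control and 10.56, 10.45 and 10.69 in LCM. All LCM values were above all control values, with a ratio of LCM to control of 1.35, but Gsto1 did not pass (adjusted p = 0.0810 from limma, with a standard error of 0.11 on the log2 fold change of 0.43). Gsto2, its neighbour in the genome, measured 9.22, 9.12 and 9.16 in control and 8.90, 8.97 and 8.93 in LCM. All LCM values of Gsto2 were below all control values, and the difference did not pass (adjusted p = 0.112 from limma, with a standard error of 0.07 on the log2 fold change of -0.23). The study had listed Gsto1, Gsto2 and Mgst3 as differentially regulated on these same arrays, so their directions are not independent evidence.

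No gene of the mu, alpha, theta, zeta, kappa and pi classes passed. Gstm7, a mu-class gene, measured 6.82, 6.94 and 6.84 in control and 6.51, 6.72 and 6.49 in LCM. It was lower on every LCM array (log2 fold change -0.29, adjusted p = 0.119 from limma), in a range under the dim-gene threshold. The other mu-class genes lay between -0.10 for Gstm3 and 0.19 for Gstm2, with Gstm4 at 0.01, Gstm5 at 0.12 and Gstm1 at 0.13. Gstm2 too was listed by the study on these arrays, but in the opposite direction to the unpassed difference given here. These genes are close relatives, and how far their probes tell them apart was not stated. Gstm1 measured 8.22, 8.74 and 8.26 in control and 8.49, 8.52 and 8.61 in LCM, so its LCM values fell between the controls. Without control replicate 2 its difference was 0.30 (adjusted p = 0.0464 from limma).

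All 4 theta-class genes had a negative difference, from -0.22 for Gstt4 through -0.20 for Gstt2 and -0.14 for Gstt3 to -0.08 for Gstt1, and none passed. Gstz1, which isomerises maleylacetoacetate in tyrosine breakdown, measured 11.65, 11.85 and 11.91 in control and 11.63, 11.59 and 11.48 in LCM. Its LCM values were all lower, by a narrow margin to control replicate 1 (log2 fold change -0.24, adjusted p = 0.218 from limma). Gsta4, which conjugates lipid aldehydes and is a known adipocyte enzyme, measured 10.69, 10.25 and 10.78 in control and 10.65, 10.50 and 10.57 in LCM. Its difference was 0.00 (95% interval -0.33 to 0.33), and -0.16 without control replicate 2, the lowest array. Gsta3 had a difference of 0.11 and Gstp3, a dim pi-class gene, one of -0.01. Gstk1, a kappa-class enzyme of mitochondria and peroxisomes, measured 8.83, 7.94 and 8.83 in control and 8.58, 8.59 and 8.54 in LCM. It turned on control replicate 2 alone, with a difference of 0.04 over all arrays and of -0.26 without that array (adjusted p = 0.0460 from limma).

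**Figure D2:**
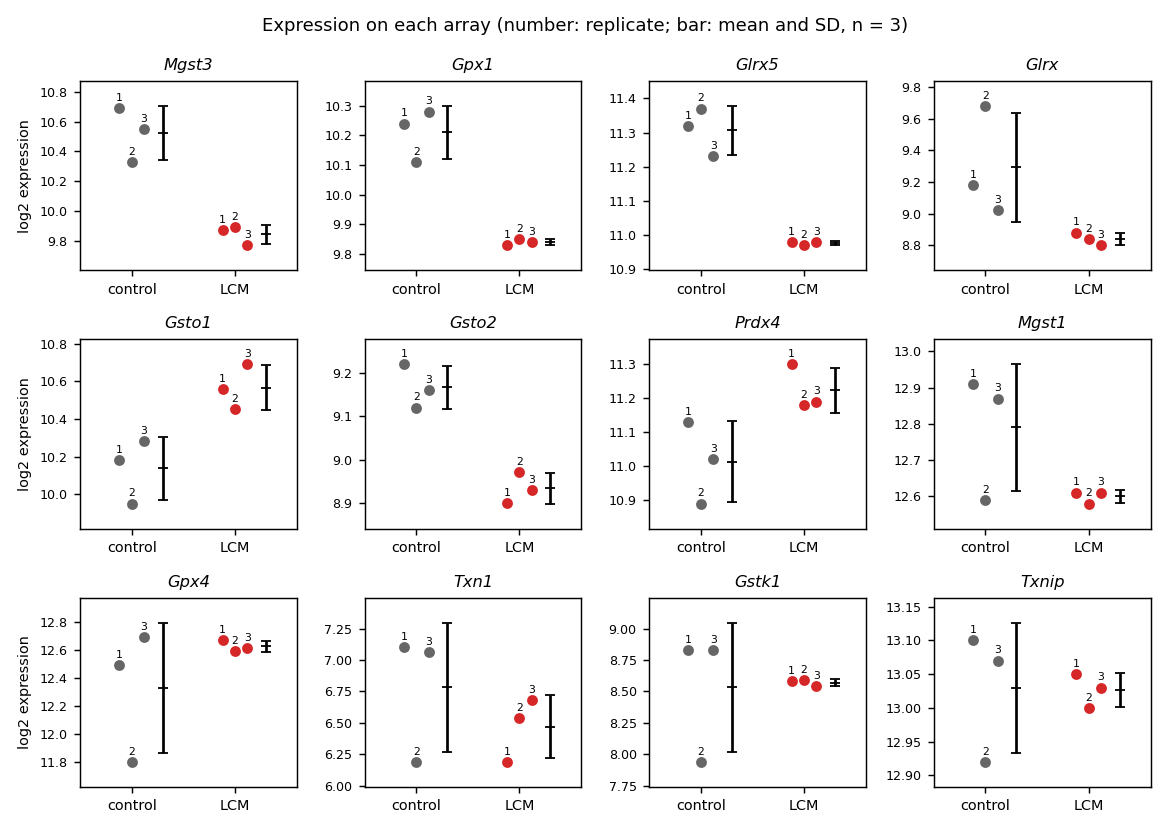
Log2 expression of 12 of the enzyme genes on each array, with a point per array (its number is the replicate) and a bar for the mean and SD of each group (n = 3), each panel on its own vertical scale. The groups are apart for Mgst3, Gpx1, Glrx5, Glrx, Gsto1, Gsto2 and Prdx4, whereas for Gpx4 and Gstk1 the low control replicate 2 spans the range.

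The proximal promoters of the 3 genes that fell and of the Gsto1 and Gsto2 neighbours are shown because these 5 genes carry the differences above. The windows run from 250 bases before to 50 bases after the RefSeq start (build GRCm38.p6), are written 5′ to 3′ on the strand of the gene, and were not part of the deposited data. Capitals mark the GC box GGGCGG, the CCAAT box and the antioxidant response element core TGACNNNGC, the site type Nrf2 binds, each searched on both strands. Gsto2 had 2 listed starts, and the upstream one is printed.
Mgst3 promoter, chr1:167393792-167394091, minus strand: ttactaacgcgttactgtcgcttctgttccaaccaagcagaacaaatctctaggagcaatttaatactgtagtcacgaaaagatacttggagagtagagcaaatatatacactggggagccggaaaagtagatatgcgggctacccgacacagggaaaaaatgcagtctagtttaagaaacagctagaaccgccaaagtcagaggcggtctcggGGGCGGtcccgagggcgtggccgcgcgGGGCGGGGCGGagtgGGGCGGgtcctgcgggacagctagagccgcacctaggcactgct
Gpx1 promoter, chr9:108338830-108339129, plus strand: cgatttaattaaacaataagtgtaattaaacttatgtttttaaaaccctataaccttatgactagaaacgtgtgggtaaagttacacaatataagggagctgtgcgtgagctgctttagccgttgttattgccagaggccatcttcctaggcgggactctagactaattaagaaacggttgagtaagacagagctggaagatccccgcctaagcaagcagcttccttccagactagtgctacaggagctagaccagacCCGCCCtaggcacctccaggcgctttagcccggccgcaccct
Glrx5 promoter, chr12:105032368-105032667, plus strand: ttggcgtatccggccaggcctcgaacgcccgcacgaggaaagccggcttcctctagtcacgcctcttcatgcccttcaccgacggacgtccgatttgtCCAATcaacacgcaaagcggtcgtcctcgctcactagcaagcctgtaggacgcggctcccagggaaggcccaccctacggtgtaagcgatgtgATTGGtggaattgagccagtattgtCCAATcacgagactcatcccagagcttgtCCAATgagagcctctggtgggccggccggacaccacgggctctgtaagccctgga
Gsto1 promoter, chr19:47854723-47855022, plus strand: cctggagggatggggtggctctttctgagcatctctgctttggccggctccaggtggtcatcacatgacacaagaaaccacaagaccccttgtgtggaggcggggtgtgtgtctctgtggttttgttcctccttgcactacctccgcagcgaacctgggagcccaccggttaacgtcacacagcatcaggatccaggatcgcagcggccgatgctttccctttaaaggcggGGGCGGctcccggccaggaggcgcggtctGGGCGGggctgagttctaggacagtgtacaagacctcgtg
Gsto2 promoter, chr19:47865295-47865594, plus strand: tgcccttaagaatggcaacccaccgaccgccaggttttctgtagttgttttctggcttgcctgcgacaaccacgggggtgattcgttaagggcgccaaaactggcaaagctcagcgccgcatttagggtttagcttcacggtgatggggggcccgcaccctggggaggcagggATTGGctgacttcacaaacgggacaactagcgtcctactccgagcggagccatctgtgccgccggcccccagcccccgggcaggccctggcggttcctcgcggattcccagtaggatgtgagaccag

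None of these 5 windows held the antioxidant response element core. The Mgst3 window held 4 GC boxes close to its start, of which a pair overlapped, and the Gsto1 window held 2. The Glrx5 window held 4 CCAAT boxes and no GC box, the Gpx1 window a single GC box, and the printed Gsto2 window a single CCAAT box. The Gsto2 window that is not printed held 3 CCAAT boxes and 2 GC boxes. The Gsto1 and Gsto2 windows begin 10572 bases apart on the same strand of chromosome 19. RefSeq listed a promoter for 39 of the 42 members (not for Gsta4, Gstt2 and Sod3). The core TGACNNNGC was in 5 of the 39, or 12.8%, which were Gsta3, Gstm5, Gstm7, Mgst1 and Prdx1, and in 15.7% of the 11869 tested genes with a promoter listed. CCAAT was in 56.4% of the 39 and 42.4% of those genes, and GGGCGG in 64.1% and 56.9%. A match describes letters in this window, and Nrf2 sites farther away were not searched.

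By compartment, with each gene counted in a single one, the 3 falls were of genes counted as cytosolic (Gpx1), mitochondrial (Glrx5) and membrane (Mgst3). This spread rests on how the genes were assigned. Gpx1 and Gpx4 were counted as cytosolic although their enzymes are also found in mitochondria, and Gstk1 as mitochondrial although also peroxisomal. Mgst1 and Mgst3 were counted apart from the ER, although Mgst1 sits partly there and the study names MGST3 a microsomal enzyme. Of 26 cytosolic genes, 1 fell and the median log2 fold change was -0.01, with a range of -0.45 to 0.43. Of 7 mitochondrial genes (Glrx2, Glrx5, Gstk1, Prdx3, Sod2, Txn2 and Txnrd2), 1 fell and the median was -0.06. The mitochondrial genes spanned -0.33 to 0.07, and Glrx5 was the single one whose groups did not overlap. The 2 membrane enzymes, Mgst1 and Mgst3, had a median of -0.43. The 3 genes counted under the ER, without Mgst1 and Mgst3, lay at -0.21, -0.08 and 0.21, and the 4 secreted enzymes at -0.17 to 0.07. By family, the medians were -0.27 for the glutaredoxins, -0.15 for the dismutases, -0.08 for the transferases, -0.06 for the glutathione peroxidases, 0.03 for the thioredoxin system and 0.19 for the peroxiredoxins. These medians rest on 2 to 26 genes and carry no test. Several moved without control replicate 2, when the median was 0.03 for the peroxiredoxins, -0.05 for the thioredoxin system, -0.18 for the transferases, -0.10 for the glutathione peroxidases, -0.09 for the dismutases and -0.18 for the glutaredoxins. By compartment it was then -0.09 for the cytosolic, -0.06 for the secreted and -0.12 for the ER genes, and -0.53 for the membrane enzymes and -0.07 for the mitochondrial genes.

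Members of a family were also set against each other within each array, in 8 pairs across compartments or paralogs. With 3 arrays per group, an exact permutation test (two-sided) cannot give a p under 0.1, and no pair could pass. Gsto1 minus Gsto2 was 0.96, 0.82 and 1.12 on the control arrays and 1.66, 1.48 and 1.75 on the LCM arrays. This log2 difference was 0.66 larger in LCM, with no overlap between the groups (exact permutation p = 0.1, adjusted p = 0.2 over 8 pairs). Since Gsto1 alone lay higher and Gsto2 alone lower on every LCM array, this non-overlap was fixed by them and adds no evidence. Mgst1 minus Mgst3 was 2.23, 2.26 and 2.31 in control and 2.75, 2.68 and 2.84 in LCM, a shift of 0.49. Here control replicate 2 did not stand apart, since both genes were low on it, and the groups did not overlap (exact permutation p = 0.1, adjusted p = 0.2). Gpx1 minus Gpx4 shifted by -0.67 and Prdx1 minus Prdx3 by 0.23, also without overlap and at the same p. Without control replicate 2 these shifts were -0.46 and 0.16. Txn1 minus Txn2 shifted by -0.34 (-0.19 without control replicate 1, -0.56 without control replicate 2 and -0.18 without LCM replicate 1), Glrx minus Glrx5 by -0.12, Prdx1 minus Prdx2 by -0.05 and Sod2 minus Sod3 by 0.03, and in these 4 pairs the groups overlapped (exact permutation p of 0.3 to 1.0).

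Much of the spread within the enzyme genes lay in control replicate 2. This array held the lowest or the highest of the 6 values for 26 of the 42 members (17 lowest and 9 highest), or 61.9%, against 52.5% of all genes. Next came control replicate 3 with 16 members, or 38.1%, against 29.9% of all genes. LCM replicate 2 was extreme for only 5, or 11.9%, against 20.8% of all genes. The SD was larger among controls than among LCM arrays for 34 members, or 81.0%, as for 72.1% of all genes. Its median over the members was 0.17 in control and 0.07 in LCM, against 0.13 and 0.08 over all genes. The largest low deviations of control replicate 2 from the mean of the other controls were those of Gstk1 and Txn1 (both -0.89), Gpx4 (-0.79) and Prdx2 (-0.76), and the largest high ones those of Gpx2 (0.93), Glrx2 (0.67) and Glrx (0.58). What set this array apart was not tested.

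**Figure D3:**
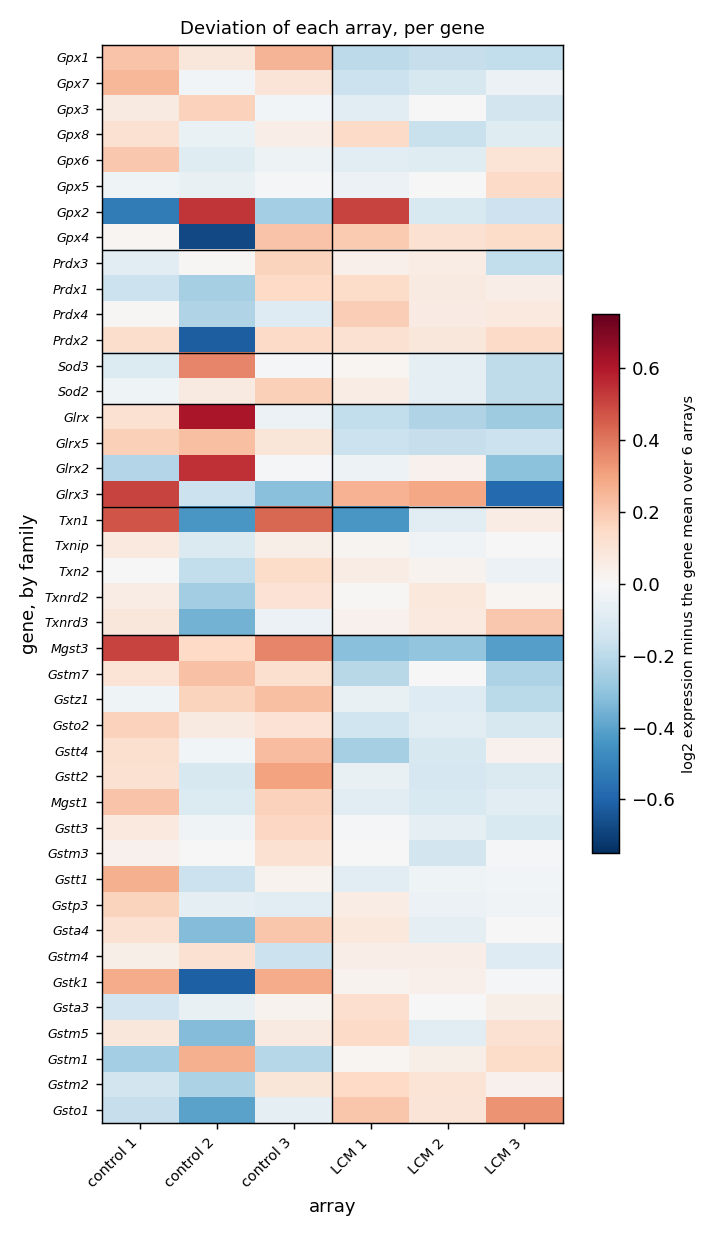
Log2 expression of each enzyme gene on each array minus the mean of the gene over the 6 arrays, with genes in rows by family (black lines part the families) and arrays in columns. The column of control replicate 2 is dark for Gpx4, Prdx2, Txn1, Gstk1, Gpx2, Glrx and Glrx2, and Mgst3 is above its mean on all controls and below it on all LCM arrays.

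Without control replicate 2, 6 members fell (Mgst3, Gpx1, Glrx5, Mgst1, Txn1 and Gstk1) and Gstm1 rose, where 4.39% of all genes fell and 4.58% rose. Without any other single array 0 members passed by limma, while 5 to 7 were lower and 1 to 4 higher at an unadjusted p under 0.05. The share of all genes at that unadjusted limit was not counted for these subsets, so these counts cannot be set against it. In these 5 subsets all the same the log2 fold change of Mgst3 was -0.60 or lower, and the adjusted p of Mgst3, Gpx1 and Glrx5 reached 0.0912, 0.168 and 0.200 at most. Fewer genes passed at an adjusted p under 0.05 in these subsets. Of all genes, 0.707% rose and 0.471% fell without control replicate 1, and 1.22% and 1.13% without control replicate 3. The shares were 0.444% and 0.222% without LCM replicate 1, 0.31% and 0.222% without LCM replicate 2, and 0.262% and 0.141% without LCM replicate 3. The methods' t-test is stated by the study in its paired form, at an unadjusted threshold, and was run here in both forms. By the methods' t-test, unpaired, 0 members passed after Benjamini-Hochberg, where 0.7% of all genes rose and 0.444% fell, and at an unadjusted p under 0.05 there were 1 higher and 5 lower members (8.26% and 9.26% of all genes). Paired by replicate number, 0 members and 0.0% of all genes passed after adjustment, and 2 members were higher and 6 lower (5.98% and 5.87% of all genes) before it.

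**Figure D4:**
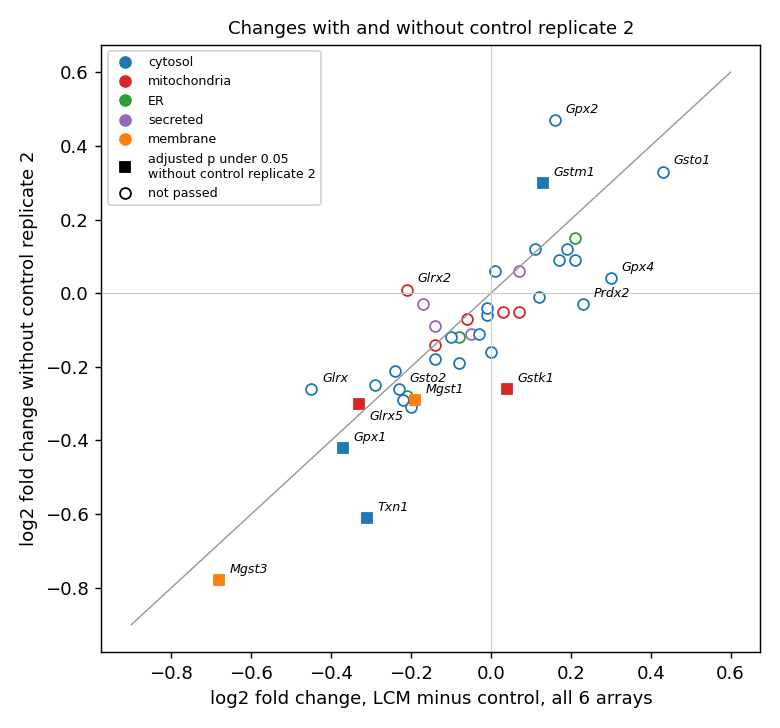
Log2 fold change (LCM minus control) of the 42 enzyme genes without control replicate 2 (vertical) against that over all 6 arrays (horizontal), coloured by compartment, with the line of equal values. Filled squares passed without control replicate 2 at an adjusted p under 0.05, and Gpx2, Txn1 and Gstk1 lie farthest from the line.

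Genes that serve these enzymes were taken from 4 lists and counted in the same fit, in which 2.29% of all genes rose and 1.97% fell. Of 12 genes of peroxide repair and reduction, 2 rose (16.7%) and 1 fell (8.33%), with a median log2 fold change of -0.05 (-0.12 without control replicate 2). Sesn2, a stress-induced sestrin, rose 1.48-fold and Srxn1, which repairs overoxidized peroxiredoxins, 1.41-fold, whereas Sesn1, a sestrin known as a p53 and FOXO target, fell by 0.34 on the log2 scale. Cat and Msra, a methionine sulfoxide reductase, were lower on every LCM array and did not pass (log2 fold changes -0.35 and -0.37). The study had listed Cat as lower on these same arrays, so its direction is not independent evidence. Gsr, which regenerates glutathione, had a difference of 0.05.

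Of 17 other thioredoxin-fold or related proteins, 2 rose (11.8%) and none fell, with a median of -0.01. These were Txndc16, an ER protein, at 1.42-fold (adjusted p = 0.0104 from limma) and Txnl1, a cytosolic thioredoxin-like protein bound to the proteasome, at 1.32-fold. Of 17 genes of selenoprotein synthesis and other selenoproteins, 2 fell (11.8%) and none rose, with a median of 0.04. Selenop, the secreted selenium carrier, fell by 0.52 on the log2 scale and Sephs2, which makes the selenium donor for selenocysteine, by 0.45. Of 13 genes of glutathione synthesis and turnover, 3 rose (23.1%) and none fell, with a median of 0.15 (0.06 without control replicate 2). They were Gclc, which starts glutathione synthesis, at 1.97-fold, Chac1, which breaks glutathione down, at 1.83-fold and Slc3a2, a subunit of the cystine transporter, at 1.58-fold. Slc7a11, the other subunit of that transporter, overlapped between the groups and did not pass (log2 fold change 0.27, adjusted p = 0.254 from limma). Gclc had been listed by the study as higher on these same arrays, so its direction is not independent evidence. Among the 6 subsets that leave out a single array, Chac1 passed in 5, Gclc and Txndc16 in 3, Sesn2 and Slc3a2 in 2, and Srxn1, Sesn1, Txnl1, Selenop and Sephs2 in the single one without control replicate 2.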

How the data were processed

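RNA from 3T3-L1 adipocytes (3 LCM and 3 control cultures) was hybridized to GeneChip Mouse Gene ST arrays. The authors deposited log2 expression values made with RMA, which corrects background, normalizes between arrays and summarises probes, with a column per array. For its version, the build and filters, nothing was given in the sources used here. Of 23332 transcript rows, 14996 had a single symbol in the platform annotation, 1019 several and 7317 none listed, which left 14860 genes (highest mean where 135 genes had several rows; no member had). Of the single symbols, 14941 had their identifier in the RefSeq table of GRCm38.p6, and 0 changed.

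Groups were compared with limma 3.58.1 (lmFit, eBayes, two-sided, no block) in R 4.3.3, and passed at a Benjamini-Hochberg adjusted p under 0.05 over all genes tested. The procedure was tested on simulated data. Pairs of members were compared by exact permutation. Every member is named, with all values for those that passed (also without 1 array), those at a log2 fold change of 0.3 or more in size and the paired genes, and of related lists those that passed. Members, lists and pairs were chosen with earlier results of these data known. Gpx7, Gstm7, Gstz1, Prdx4, Txnip and Gsta4 and the unpassed Cat, Msra, Gsr and Slc7a11 were given further values after these were seen. The deposited table holds no detection calls, so 7.86, the median over all genes, served as the dim-gene threshold in an alternative, which 27 of the 42 members passed. Python 3.11.15 with pandas 2.3.3 and matplotlib 3.10.9 made the summaries and plots.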

Additional observations from a re-analysis of the deposited data

Results flagged for a closer look

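A signal appeared in a row that the comparisons do not use. The row that the platform assigns to both Txnrd1, the cytosolic thioredoxin reductase and a known Nrf2 target, and 1700028I16Rik lay above the control level on every LCM array. It measured 9.57, 9.40 and 9.59 in control and 9.92, 9.97 and 10.06 in LCM, a difference of 0.47 on the log2 scale. The row was flagged because its groups did not overlap. This fixes the exact permutation p at 0.1, the smallest that 3 against 3 arrays allow, so the p adds no evidence. Of all genes, 12.8% were also higher in LCM without overlap. Which of the 2 genes gave the signal cannot be told apart on this row, and the study had listed TXNRD1 as differentially regulated on these same arrays.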

How the results depend on the processing

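The number of members that fell was 3 by limma and also 3 with a trend and robust prior, with arrays centred on their median, with dim genes left out and with the mean of the transcripts of a gene, and 2 with quantile normalization applied again. It was 6 with array weights and 0 when all transcripts were tested. By the methods' t-test, unpaired, it was 0 after Benjamini-Hochberg (5 lower and 1 higher at an unadjusted p under 0.05). Of the 14860 genes, 633 passed by limma in either direction, 1864 with array weights, 205 with all transcripts tested and 170 by that t-test. With the trend and robust prior 688 passed, with arrays centred 640, with quantile normalization again 648 and with the mean of transcripts 638. No member had several rows, so taking that mean left the values of the members as they were. With dim genes left out, 940 of 7590 genes passed. With the replicate number as a block, 1 fell, and by the methods' t-test paired by that number 0 fell (6 lower and 2 higher at an unadjusted p under 0.05). The samples share a number, and whether same-numbered cultures were paired is not stated. Same-numbered arrays deviated together at correlations of -0.234, 0.0552 and 0.112, and arrays of different number at -0.279 to 0.285. These correlations cannot settle the pairing, since the deviations of 3 arrays from their group mean are tied to each other. The block moved the count over all genes from 633 to 324. The number that rose was 0, and 1 with array weights or with dim genes left out, Gsto1 both times. Array weights also called falls of Gsto2, Gpx7 and Mgst1. Leaving out 1 array gave 0 to 6 that fell and 0 to 1 that rose, with the highest counts without control replicate 2. The cause of these shifts was not tested.

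Only array weights, centring, quantile normalization again and leaving out 1 array could change the log2 fold change of a member. The remaining alternatives leave it as it is. Under all those that could change it, 27 of the 42 members kept their direction, Mgst3, Gpx1, Glrx5 and Gsto1 among them. The other 15 had a log2 fold change of at most 0.23 in size. With array weights, Glrx2 was 0.03, Gsta4 -0.14, Gstk1 -0.19, Gstm5 -0.03, Txn2 -0.01 and Txnrd2 -0.01. With arrays centred, Gsta4 was -0.05, Gstk1 -0.01, Gstm4 -0.04 and Txn2 -0.02. With quantile normalization again, Gsta4 was 0.00 and Gstp3 0.01. Leaving out 1 array gave ranges that crossed 0, of -0.38 to 0.01 for Glrx2, -0.19 to 0.26 for Glrx3, -0.06 to 0.47 for Gpx2, -0.11 to 0.04 for Gpx6, -0.16 to 0.10 for Gsta4, -0.26 to 0.19 for Gstk1, -0.07 to 0.06 for Gstm4, -0.01 to 0.19 for Gstm5, -0.05 to 0.07 for Gstp3, -0.19 to 0.03 for Gstt1, -0.03 to 0.36 for Prdx2, -0.11 to 0.02 for Prdx3, -0.05 to 0.11 for Txn2, -0.06 to 0.03 for Txnip and -0.05 to 0.14 for Txnrd2.

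Of the 8 pairs, 3 changed direction, each without control replicate 2, where Prdx1 minus Prdx2 was 0.11, Glrx minus Glrx5 0.04 and Sod2 minus Sod3 -0.11. Their ranges without 1 array were -0.21 to 0.11 for Prdx1 minus Prdx2, -0.22 to 0.04 for Glrx minus Glrx5 and -0.11 to 0.13 for Sod2 minus Sod3. In the lists, peroxide repair gave 1 rise and 0 falls with the replicate block, 1 rise and 3 falls with arrays centred, and 0 to 2 rises and 0 to 3 falls without 1 array. The thioredoxin-fold list gave 1 rise with the block, 1 with arrays centred and 0 to 3 without 1 array. The selenoprotein list gave 0 falls with the block and 0 to 2 without 1 array, and the glutathione list 0 to 4 rises without 1 array.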

Other observations

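Other rows that name an enzyme of these families together with another gene overlapped between the groups. The pair Gstp1 and Gstp2, the pi-class transferases, had a pair of rows. The brighter one measured 13.10, 12.55 and 12.97 in control and 12.76, 12.87 and 13.18 in LCM, a log2 difference of 0.06. The dimmer one measured 8.20, 8.48 and 9.09 in control and 9.14, 8.71 and 9.07 in LCM, a difference of 0.38, and its LCM values lay in and just above the upper part of the control range. The row of Gstm3 and Gstm6 was near the bottom of the scale, at 3.92 to 4.03 in control and 4.01 to 4.40 in LCM. The row of Gstz1 and Pomt2 differed by 0.12 and that of Gpx2 and Pgm2l1 by -0.32, each with overlap.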
